A study of Mus musculus with 6 samples.

Results

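The genes described here are 43 components and targets of transforming growth factor beta (TGF-beta) and bone morphogenetic protein (BMP) signalling, measured in cultured mouse prostate cells with and without the retinoblastoma gene Rb1. They are a list of ligands, latency and matrix proteins, receptors, antagonists, Smads and Id genes, chosen with earlier results of these data known. They were matched to the array by the RefSeq accession of each probe. All 43 were found, on 54 of the 39429 probes, among 20832 named genes. The 3 Rb deleted cultures (p53-/- Rb∆f/∆f) had received an adenovirus carrying Cre recombinase, and 3 Rb intact cultures (p53-/- Rbf/f) an adenovirus carrying lacZ, each overnight. RNA was taken 48 hours after infection, so vector and Rb status cannot be told apart. All 6 cultures lacked p53 and grew in Prostacult medium without serum and with the growth factors bFGF and bEGF. The series design speaks of independent experiments. Whether the cultures came from separate mice is not given in the sources used here, and p-values measure the spread between these cultures.

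Ligands of the TGF-beta superfamily bind complexes of type I and type II serine/threonine kinase receptors. The activated type I receptor phosphorylates Smad2 and Smad3 after TGF-beta or activin, or Smad1 and Smad5 after BMP, and these enter the nucleus with Smad4. Follistatin binds activins, and noggin, gremlin and chordin bind BMPs, so that fewer ligands reach their receptors. In prostate epithelium TGF-beta is known as a restraint on growth, and BMPs and their antagonists act in the branching of the gland.

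Promoter sequence is shown for the matrix gene Tgfbi and for 3 Id genes, which are known as targets of the pathway. All but Id4 fell in Rb deleted cells. Id1 is not shown because the promoter set used here holds no window for it. Each line gives the 250 bases before the start site from RefSeq (build GRCm38.p6), 5′ to 3′ on the strand of the gene. Capitals mark exact matches on either strand to a Smad box (CAGAC) or a BMP response element (GGCGCC).
Tgfbi, chr13:56609336-56609585, plus strand: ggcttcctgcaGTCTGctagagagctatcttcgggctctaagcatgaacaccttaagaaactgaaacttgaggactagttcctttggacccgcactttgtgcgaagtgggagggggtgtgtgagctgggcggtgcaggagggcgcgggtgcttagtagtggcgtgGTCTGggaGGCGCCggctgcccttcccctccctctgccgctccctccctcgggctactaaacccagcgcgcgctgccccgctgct
Id2, chr12:25096093-25096342, minus strand: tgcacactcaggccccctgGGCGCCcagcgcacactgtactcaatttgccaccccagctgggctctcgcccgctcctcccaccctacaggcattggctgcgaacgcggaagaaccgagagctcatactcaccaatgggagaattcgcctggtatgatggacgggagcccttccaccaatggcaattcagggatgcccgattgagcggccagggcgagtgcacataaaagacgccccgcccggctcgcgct
Id3, chr4:136143572-136143821, plus strand: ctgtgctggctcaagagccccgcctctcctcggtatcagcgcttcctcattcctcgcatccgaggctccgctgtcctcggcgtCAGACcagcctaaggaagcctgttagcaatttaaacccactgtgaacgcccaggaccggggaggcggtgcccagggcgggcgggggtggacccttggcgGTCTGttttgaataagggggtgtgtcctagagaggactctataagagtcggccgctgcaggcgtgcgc
Id4, chr13:48260866-48261115, plus strand: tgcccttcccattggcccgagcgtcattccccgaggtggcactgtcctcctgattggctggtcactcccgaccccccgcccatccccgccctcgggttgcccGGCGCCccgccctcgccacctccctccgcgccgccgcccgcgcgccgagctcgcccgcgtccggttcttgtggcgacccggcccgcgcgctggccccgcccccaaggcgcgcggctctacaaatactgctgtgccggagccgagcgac

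The Id2 and Id4 windows hold 1 BMP element each, the Id3 window holds 2 Smad boxes, and the Tgfbi window holds 2 Smad boxes and 1 BMP element. Of 32851 promoter windows of this length in the table, 42.2% hold a Smad box and 9.59% a BMP element. Among the 31 members with a promoter in the table, 16 had a Smad box and 9 a BMP element in at least 1 window. Among the 14 of them that changed, 8 had a Smad box and 4 a BMP element. Among the 16 that did not pass the threshold, 7 had a Smad box and 5 a BMP element. Some members have more than 1 window, so counts by gene are not directly comparable with the shares by window. An E2F core (TTCCCGC or TTCGCGC or TTGCCGC or TTGGCGC, searched on both strands, the last of which can overlap a BMP element) was found in 7.89% of all windows and in none of those 14 genes. Of the 16 that did not pass the threshold, 2 had an E2F core. These letter matches are a description of the windows and not of binding.

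Signals are given as log2 processed intensity relative to the 75th percentile of each array, and levels of different genes are not comparable on this scale. A difference is the Rb deleted mean minus the Rb intact mean, in log2 units, with the standard error (SE) of the limma fit, and rose and fell mean a limma adjusted p under 0.05. Rb1 itself averaged -2.96 ± 0.03 in Rb deleted and -1.01 ± 0.02 in Rb intact cultures (SD, n = 3 each), a difference of -1.95 ± 0.05 (limma adjusted p = 8.76e-05). Whether its probe lies inside the deleted stretch is not given in the sources used here. The share of probes well above background ranged over the arrays between 58.7% and 63.3%, and saturation was not reached. The first slide held Rb deleted 1 and all Rb intact arrays, and the second held Rb deleted 2 and 3. Rb intact 1 lay furthest from its group: the SD of its deviations from the group mean over genes was 0.22, against 0.11 to 0.15 on the other 5 arrays.

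Markers of the cell types that the cultures could hold were read on the same arrays. The fibroblast marker Pdgfra, the endothelial marker Pecam1, the luminal marker Krt8 and the neuroendocrine marker Syp were well above background on all 6 arrays. The basal marker Krt5 was above it on 2 of 3 Rb deleted and 1 of 3 Rb intact arrays, and the leukocyte marker Ptprc on none. The basal keratins Krt15 and Krt17 were above it on no array and on 1 Rb deleted array, and like Krt5 were not tested. Of 4 basal markers tested 3 fell (Itga6, Dst and Trp63), where 10.4% of all genes fell. The Trp63 call (adjusted p = 0.0492) was lost without any array but Rb intact 1 and with the deposited log2 values, that of Dst without Rb deleted 2, and all 3 with slide as a block. The other tested basal marker, Krt14, gave 0.07 (limma adjusted p = 0.731). The log2 of the summed signal of the 4 was 4.57 to 4.61 in Rb deleted and 5.02 to 5.28 in Rb intact cultures, with no overlap, a sum set mostly by Itga6 (means of 4.44 in Rb deleted and 5.01 in Rb intact). Of 9 fibroblast and smooth muscle markers 2 fell (Acta2 and Lum), with summed levels of 8.37 to 8.45 in Rb deleted and 8.40 to 8.53 in Rb intact. Of 4 endothelial markers 1 fell (Vwf, well above background on 1 of 3 Rb deleted and 3 of 3 Rb intact arrays, its call lost without Rb deleted 2 or Rb intact 2), with 1.87 to 2.13 in Rb deleted and 2.06 to 2.11 in Rb intact. No tested luminal (4), leukocyte (3) or neuroendocrine (3) marker passed the threshold. The part of these marker changes in the results below was not tested, and in bulk RNA fewer cells of a type and less RNA per cell cannot be told apart.

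Of the 41 members that passed the filter on dim probes, 7 rose and 11 fell, 18 in all or 43.9%. Over all 13729 genes tested, 20.6% changed, 10.2% upward and 10.4% downward. Because the members and the other lists were chosen with earlier results of these data known, their shares describe them and are no test. The ligands were split, 3 of 6 extracellular antagonists rose, 3 of 4 Id genes fell and no Smad passed the threshold. The groups did not overlap for 26 of the 41 members, or 63.4%, against 45.3% of all genes. Rb deleted lay above in 12 of them and below in 14, where all genes gave 24.4% and 20.9%. An unadjusted p under 0.05 was reached by 22 members and by 35.7% of all genes. The median difference of the members was 0.04, beside 0.02 over all genes, and the median size was 0.22, beside 0.16. Bmp3 and Bmp5, encoding 2 BMP ligands, were not well above background on any array and were not tested.

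**Figure D1:**
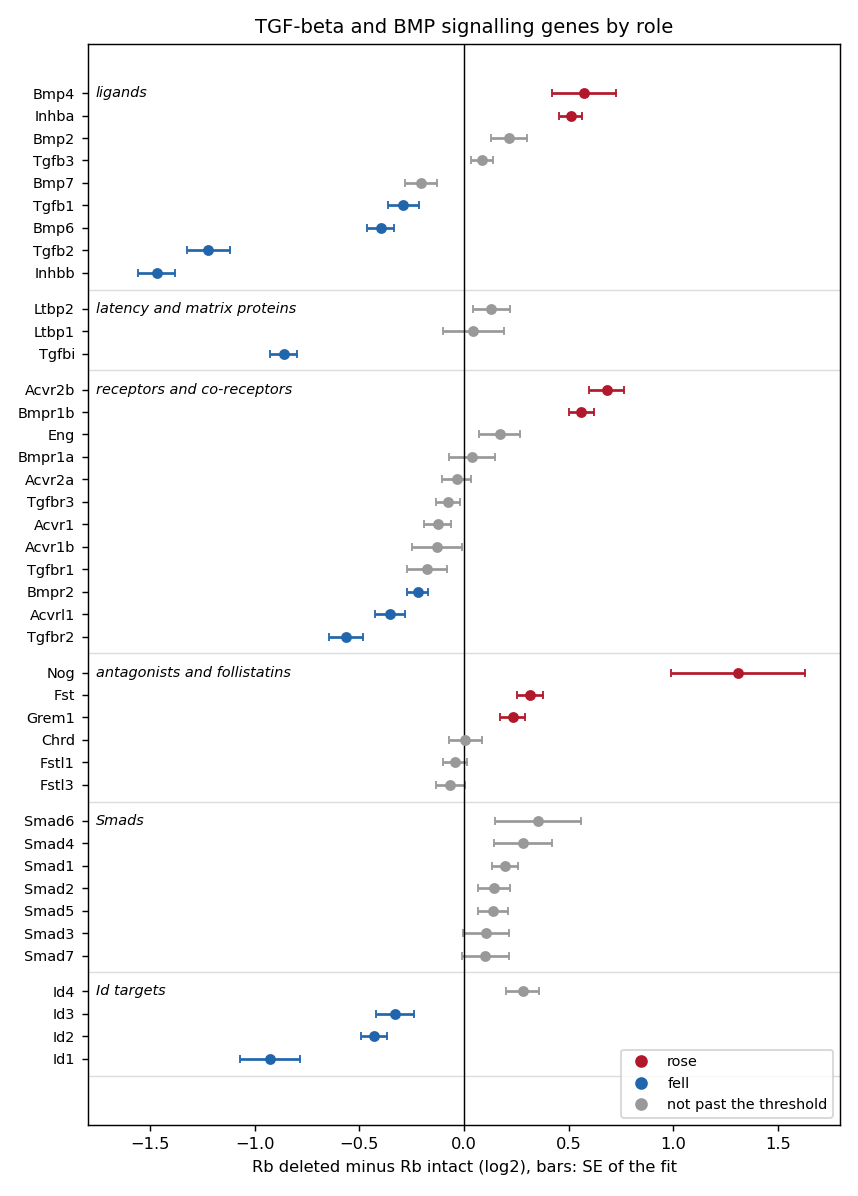
Difference between Rb deleted and Rb intact cultures on the log2 scale for the 41 tested members, ordered within each role, with bars for the SE of the limma fit. Red genes rose, blue genes fell and grey genes did not pass the threshold. The 7 Smads all lie right of 0 without passing the threshold, while 3 of the 4 Id genes lie left of it.

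Among the 9 tested ligands, 2 rose and 4 fell, where 10.2% of all genes rose and 10.4% fell. The groups overlapped for none of the 9, and did not overlap for 45.3% of all genes. The activin subunits changed in opposite directions. Inhbb, which encodes the beta B subunit of activin and inhibin, had signals of -2.55, -2.45 and -2.54 in Rb deleted and -0.87, -1.15 and -1.11 in Rb intact cultures. All Rb deleted arrays lay more than 1 log2 unit below every Rb intact array. The Inhbb difference was -1.47 ± 0.09, or 2.77-fold lower (limma adjusted p = 0.000332), and its size exceeded that of 99.3% of all genes tested. Inhba, which encodes the beta A subunit, had 3.17, 3.21 and 3.25 in Rb deleted and 2.65, 2.74 and 2.71 in Rb intact cultures. Inhba rose by 0.51 ± 0.05, or 1.42-fold (adjusted p = 0.00221), with every Rb deleted array above every Rb intact array.

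The TGF-beta ligands did not move alike. Tgfb2 read -3.99, -3.99 and -4.07 in Rb deleted and -3.02, -2.63 and -2.74 in Rb intact cultures. It fell by 1.22 ± 0.10 on the log2 scale, 2.33-fold lower (adjusted p = 0.000975). A dimmer Tgfb2 probe was not well above background on any Rb deleted array (mean -6.35) and was above it on all Rb intact arrays (mean -4.81). By that probe Tgfb2 was at least 2.41-fold lower, a bound that was not tested. The probe passed the filter through the Rb intact arrays alone, so it is no separate support for the fall. Tgfb1, the form best known for growth arrest of epithelium, read -0.03, -0.06 and -0.13 in Rb deleted and 0.35, 0.15 and 0.15 in Rb intact cultures. Its difference was -0.29 ± 0.07 (adjusted p = 0.0384), and the call was lost when any array but Rb intact 1 was left out and with scaling on the array median. Tgfb3 differed by 0.09 ± 0.05 (adjusted p = 0.276), a small difference with narrow groups.

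The BMP ligands also went both ways. Bmp4, a ligand of prostate mesenchyme during development, had 1.86, 1.83 and 1.82 in Rb deleted and 0.90, 1.43 and 1.46 in Rb intact cultures. Its rise of 0.57 ± 0.15 (1.49-fold, adjusted p = 0.0448) included the low Rb intact 1, without which it was 0.39 (adjusted p = 0.00203). The Bmp4 call was lost when any other array was left out, with limma adjusted p of 0.0567 to 0.131. Bmp6 read -1.98, -1.99 and -1.87 in Rb deleted and -1.59, -1.59 and -1.46 in Rb intact cultures, and fell by 0.40 ± 0.07 (adjusted p = 0.00927), a call lost without Rb deleted 2. Bmp2 differed by 0.21 ± 0.09 (adjusted p = 0.128) and Bmp7 by -0.21 ± 0.08 (adjusted p = 0.112), and neither passed the threshold.

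**Figure D2:**
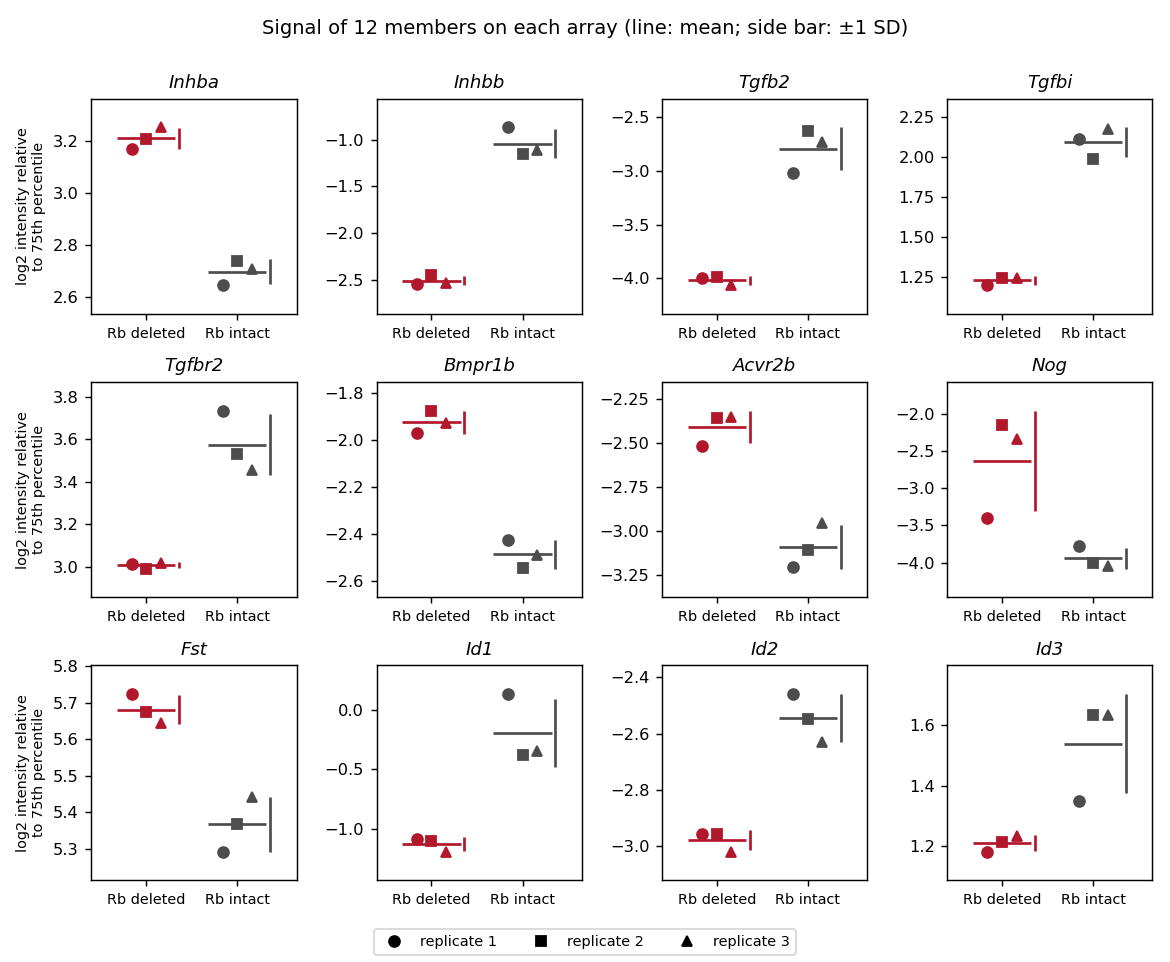
Signal of 12 members on each of the 6 arrays, in log2 units against the 75th percentile of its array, with Rb deleted in red and Rb intact in grey; the line is the group mean and the side bar is 1 SD either way. All 12 were taken from the members that rose or fell. The groups do not overlap in any of the 12 panels, and did not overlap for 45.3% of all genes. For Nog the Rb deleted 1 point lies far from Rb deleted 2 and 3.

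Latency and matrix proteins were represented by 3 genes. Tgfbi, a matrix protein first found as a TGF-beta induced transcript, read 1.20, 1.25 and 1.24 in Rb deleted and 2.11, 1.99 and 2.17 in Rb intact cultures. It fell by 0.86 ± 0.06 on the log2 scale, 1.82-fold lower (limma adjusted p = 0.00062), and the groups lay far apart relative to their spread. Its promoter, printed above, is the only one of the 4 shown with both kinds of element. Ltbp1 and Ltbp2, both of the family of latent TGF-beta binding proteins of the matrix, gave 0.05 ± 0.15 (adjusted p = 0.845) and 0.13 ± 0.09 (adjusted p = 0.331), and their groups overlapped.

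Of the 12 receptors and co-receptors, 2 rose and 3 fell, where 10.2% of all genes rose and 10.4% fell. Acvr2b, a type II receptor for activins and related ligands, had -2.52, -2.36 and -2.35 in Rb deleted and -3.20, -3.11 and -2.96 in Rb intact cultures. It rose by 0.68 ± 0.09 (1.60-fold, limma adjusted p = 0.00371), while the related Acvr2a differed by -0.04 ± 0.07 (adjusted p = 0.738). Bmpr1b, a type I BMP receptor, read -1.97, -1.88 and -1.93 in Rb deleted and -2.42, -2.55 and -2.49 in Rb intact cultures. It rose by 0.56 ± 0.06 (1.48-fold, adjusted p = 0.00199), and its second probe gave 0.59 ± 0.10. The related type I receptor Bmpr1a gave 0.04 ± 0.11 (adjusted p = 0.831), with the Rb intact 1 value of 1.22 above all others. The differences between these related receptors were not tested.

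Tgfbr2, the type II receptor that binds TGF-beta first, read 3.01, 2.99 and 3.02 in Rb deleted and 3.73, 3.53 and 3.46 in Rb intact cultures. It fell by 0.57 ± 0.08 (1.48-fold lower, limma adjusted p = 0.0059), and its second probe gave -0.43 ± 0.08. Tgfbr1, its type I partner, differed by -0.18 ± 0.10 (adjusted p = 0.232) and the co-receptor betaglycan, Tgfbr3, by -0.08 ± 0.06 (adjusted p = 0.382). Acvrl1, the type I receptor ALK1 of endothelium, had -1.55, -1.35 and -1.48 in Rb deleted and -1.13, -1.15 and -1.04 in Rb intact cultures. Its difference was -0.35 ± 0.07 (adjusted p = 0.0195), a call lost without Rb deleted 1, Rb deleted 3 or Rb intact 3. Of the endothelial markers beside it, Pecam1 gave 0.29 (adjusted p = 0.105), Cdh5 -0.12 (adjusted p = 0.261) and Kdr -0.09 (adjusted p = 0.599), and only Vwf fell. Endoglin (Eng), the co-receptor of ALK1, went the other way without passing the threshold, at 0.17 ± 0.10 (adjusted p = 0.273). Bmpr2, the type II BMP receptor, had -0.82, -0.79 and -0.84 in Rb deleted and -0.60, -0.61 and -0.57 in Rb intact cultures. Its difference of -0.22 ± 0.05 (adjusted p = 0.0251) was lost when any array but Rb intact 1 was left out, and was -0.12 (adjusted p = 0.275) with a background model on median spot signal. Acvr1, a type I receptor for BMPs, and Acvr1b, a type I receptor for activins, gave -0.13 ± 0.06 and -0.13 ± 0.12 (adjusted p = 0.217 and 0.469).

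The antagonists rose where they changed, 3 of 6, with none down, where 10.2% of all genes rose and 10.4% fell. Nog, which encodes the BMP antagonist noggin, had -3.40, -2.15 and -2.34 in Rb deleted and -3.78, -4.00 and -4.04 in Rb intact cultures. The value of Rb deleted 1, on the slide of the Rb intact arrays, lay much closer to Rb intact than did those of Rb deleted 2 and 3 on the other slide. Over all arrays Nog rose by 1.31 ± 0.32 (2.48-fold, limma adjusted p = 0.0345). The Nog difference was 0.54 within the first slide (adjusted p = 0.226) and also when slide was a block (adjusted p = 0.113), and without Rb deleted 1 it was 1.69 (adjusted p = 0.00338). The call was lost without Rb deleted 2 or 3 and without Rb intact 2 or 3.

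Fst, the activin antagonist follistatin, read 5.72, 5.68 and 5.64 in Rb deleted and 5.29, 5.37 and 5.44 in Rb intact cultures, and rose by 0.31 ± 0.06 (1.24-fold, limma adjusted p = 0.0165). Grem1, the BMP antagonist gremlin, had 4.88, 4.91 and 4.92 in Rb deleted and 4.63, 4.63 and 4.77 in Rb intact cultures, and rose by 0.23 ± 0.06 (1.18-fold, adjusted p = 0.0407). Every Rb deleted array exceeded every Rb intact array for both. Both calls were lost without any 1 of the Rb deleted arrays or without Rb intact 2, and that of Grem1 also with scaling on the array median. The groups overlapped for the BMP antagonist chordin (Chrd, 0.01 ± 0.08), for the follistatin relative Fstl3 (-0.07 ± 0.07) and for Fstl1 (-0.04 ± 0.06), with adjusted p of 0.963, 0.531 and 0.618.

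No Smad passed the threshold, against 20.6% of all genes. The differences of all 7 were positive, between 0.10 and 0.35, with a median of 0.14. Smad1, a carrier of BMP signals, came closest at 0.20 ± 0.06 (limma adjusted p = 0.0748), with -0.44, -0.50 and -0.46 in Rb deleted and -0.59, -0.63 and -0.76 in Rb intact cultures. The common partner Smad4 gave 0.28 ± 0.14 (adjusted p = 0.198), and its lowest value, 2.29, was that of Rb intact 1. Smad6, an inhibitor of BMP signalling, gave 0.35 ± 0.21 (adjusted p = 0.269) and the general inhibitor Smad7 gave 0.10 ± 0.11 (adjusted p = 0.54). Smad2, Smad3 and Smad5 gave 0.14 ± 0.08, 0.10 ± 0.11 and 0.14 ± 0.07 (adjusted p = 0.238, 0.524 and 0.22). Smad1 also passed the threshold with the mean of its 2 probes, with array weights, and with a background model on median spot signal. Array weights also called Smad6 and Smad7 upward. Without Rb intact 1, Smad1, Smad6 and Smad7 passed the threshold upward and the Smad3 difference was -0.016. The sign of Smad5 turned too, to -0.033 with that background model and to -0.0047 with the mean of its probes.

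The Id genes, which encode inhibitors of basic helix-loop-helix transcription factors, are direct targets of BMP Smads in many cells. Id1 read -1.08, -1.10 and -1.19 in Rb deleted and 0.13, -0.38 and -0.34 in Rb intact cultures. It fell by 0.93 ± 0.14 on the log2 scale (1.90-fold lower, limma adjusted p = 0.00728), and by 0.76 (adjusted p = 0.000829) without the high Rb intact 1. Id2 had -2.96, -2.96 and -3.02 in Rb deleted and -2.46, -2.55 and -2.63 in Rb intact cultures, and fell by 0.43 ± 0.06 (1.35-fold lower, adjusted p = 0.0063). Id3 had 1.18, 1.21 and 1.23 in Rb deleted and 1.35, 1.63 and 1.64 in Rb intact cultures. Its difference of -0.33 ± 0.09 (1.26-fold lower, adjusted p = 0.0477) lost its call when any array but Rb intact 1 was left out. Id4 went the other way, with -4.97, -4.96 and -4.94 in Rb deleted and -5.16, -5.40 and -5.15 in Rb intact cultures, but its 0.28 ± 0.08 did not pass the threshold (adjusted p = 0.0541); it did with array weights, when genes were averaged over their probes, and without Rb intact 1. The groups did not overlap for any of the 4, nor for 45.3% of all genes. The promoters of Id2 and Id4 shown above each hold a BMP element, and its part in these differences was not tested.

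For 11 members the array carried 2 probes, and for 9 of these both passed the filter. When each probe was tested on its own, 15.9% of all passing probes changed, and 17 of the 50 passing member probes did. Both probes changed in the same direction for Tgfb2, Tgfbr2 and Bmpr1b, but the dimmer Tgfb2 probe passed the filter through the Rb intact arrays alone. Probes of Smad3 and Smad5 had opposite signs, none past the threshold, so the direction of these Smads depends on the probe. The called probes belonged to 14 genes, against 18 called over genes. In this probe-wise limma fit Tgfb1, Grem1, Bmp4 and Id3 missed the threshold, with adjusted p of 0.0502, 0.0547, 0.0551 and 0.0603.

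**Figure D3:**
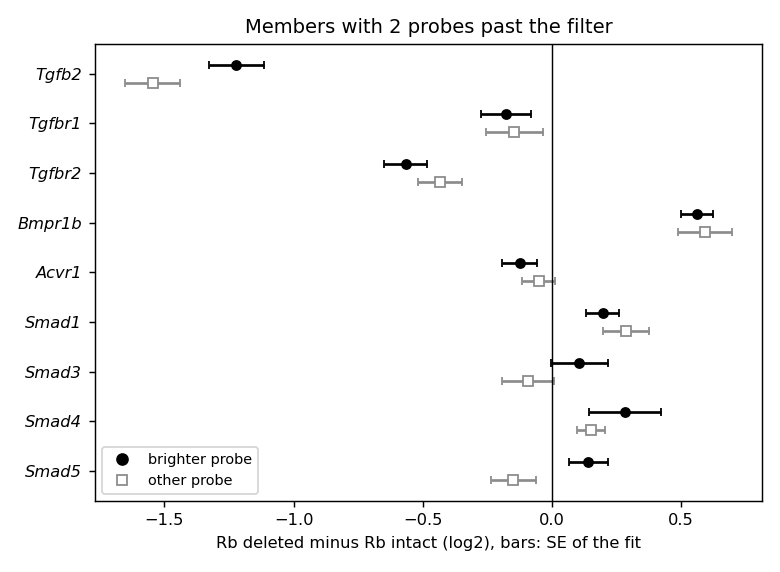
Difference between Rb deleted and Rb intact cultures on the log2 scale for each probe of the 9 members with 2 passing probes, with bars for the SE of the probe-wise limma fit; filled circles are the brighter probe. The 2 probes lie on the same side of 0 for 7 members and on opposite sides for Smad3 and Smad5.

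The slide bears on all of these values, because only the first slide holds both groups. With slide as a block 2 members rose (Inhba and Bmpr1b) and 3 fell (Inhbb, Tgfb2 and Tgfbi), where 4.85% of all genes changed. Their differences in that fit were 0.47 and 0.51, and -1.50, -1.20 and -0.89, with limma adjusted p of 0.0447, 0.0421, 0.0101, 0.0236 and 0.0146. Within the first slide, where the lone Rb deleted array is assumed to vary like the Rb intact arrays, Inhbb alone fell (adjusted p = 0.0454), where 1.11% of all genes changed. Both fits set Rb deleted 1 against the Rb intact arrays and give the same differences. Of the 13 calls lost with the block, 12 had a difference within 0.11 of that over 6 arrays, among them Tgfbr2 (-0.56, adjusted p = 0.0834), Acvr2b (0.57, adjusted p = 0.0634), Bmp4 (0.60, adjusted p = 0.25) and Id1 (-0.89, adjusted p = 0.0973). The exception was Nog.

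**Figure D4:**
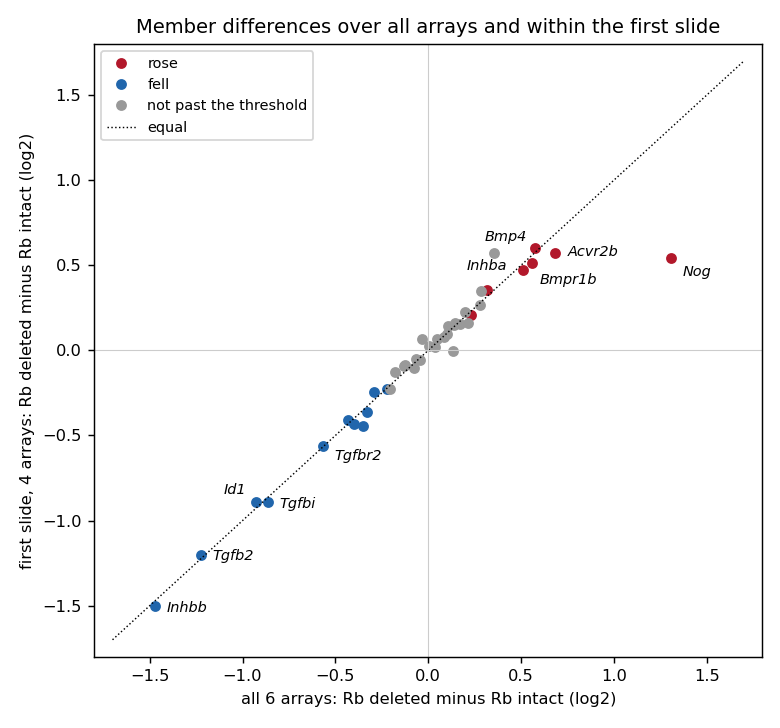
Difference between Rb deleted and Rb intact cultures on the log2 scale within the first slide (1 Rb deleted and 3 Rb intact arrays, vertical axis) against that over all 6 arrays (horizontal axis) for the 41 tested members; the dotted line marks equal values. Most members lie near the line, and Nog lies far below it, at 0.54 against 1.31.

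Other genes of the superfamily pathway were taken from a list of 52, of which 43 were tested. Of these 5 rose and 7 fell, or 27.9%, beside 20.6% of all genes, and the median difference was -0.07, beside 0.02. Gdf15, a divergent cytokine of the superfamily induced by stress, rose by 1.75 ± 0.17 (limma adjusted p = 0.0016) and the BMP-like ligand Gdf7 by 1.04 ± 0.10 (adjusted p = 0.00176). The ligand genes Bmp8a and Gdf1 fell by 0.65 ± 0.08 and 0.55 ± 0.06 on the log2 scale (adjusted p = 0.00276 and 0.00283). Pmepa1, a TGF-beta induced gene that restrains Smad signalling, rose by 0.58 ± 0.07 (adjusted p = 0.00338).

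Known targets outside the members did not move in 1 direction either. Of 25 tested in a list of 30, 5 rose and 3 fell, beside 20.6% of all genes, with a median difference of 0.01, beside 0.02. The list shares genes with the pathway list above, among them Pmepa1, whose rise is counted in both. The 3 that fell were genes of the contractile apparatus, Acta2 by 1.34 ± 0.14, Tagln by 0.92 ± 0.06 and Cnn1 by 0.80 ± 0.07 on the log2 scale (limma adjusted p = 0.00214, 0.000433 and 0.000985). Among those that rose were Msx1, a homeobox gene induced by BMPs, by 0.98 ± 0.11 (adjusted p = 0.00248) and the cell cycle inhibitor gene Cdkn1a by 0.85 ± 0.10 (adjusted p = 0.0028). The fall of Id1, Id2 and Id3 stood beside a rise of Msx1, and the fall of Tgfbi beside a rise of Pmepa1. With slide as a block, where 4.85% of all genes changed, Pmepa1 lost its call (limma adjusted p = 0.0623). The other genes named from these lists kept theirs in that fit. Within the first slide none of these 10 genes passed the threshold.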

How the data were processed

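Gene expression was measured on 6 one-colour Agilent arrays, 1 per culture. Intensities come from the authors' scans read with Feature Extraction by Agilent (11.0.1.1 in the file headers, 10.7.3.1 in the submitters' processing notes). The deposited processed intensity is already background-subtracted and was not scaled between arrays, per the file headers. The deposited table of log2 values equalled the log2 processed intensity minus a constant per array, within 0.01 for 100% of its 22164 non-control probes. Its centring is not stated.

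Of 43020 non-control spots per array, outlying spots were dropped and spots of a probe averaged to 39429 probes. The 75th percentile over probes was subtracted from the log2 values of each array. A probe was kept where every array of 1 group or both read well above background (23047 probes). RefSeq accessions named 27427 probes through a gene table of GRCm38.p6; the array was designed on mm9, so no gene coordinates were taken from it. The brightest passing probe stood for each of 13729 genes, which were fitted with limma 3.58.1 in R 4.3.3 (lmFit, eBayes, Benjamini-Hochberg over all genes). The fit was tested on simulated data. All members are named, as are, from the other lists, up to 5 genes with the smallest p. The members and lists were chosen with earlier results of these data known. The number of arrays limits the precision.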

Additional observations from a re-analysis of the deposited data

How the results depend on the processing

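Quantile normalization, scaling over probes detected on all arrays, a filter on all 6 arrays, trend and robust variance, outlying spots kept and the deposited log2 table each gave the same 18 calls. Shifting by the array median lost 3 of them, and the background model on median spot signal (the files used here hold no mean signal) lost 2 and added Smad1. The mean of a gene's passing probes kept the 18 and added Smad1 and Id4. The 18 kept their direction in all 20 alternatives, which the separation of their groups fixes where arrays were only left out or blocked. Of 820 single-gene comparisons, 687 kept direction and side of the threshold, 87 lost a call, 23 gained one and 23 changed sign.

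Counts moved as follows, against 2829 changed genes, 7 risen and 11 fallen members. No filter on dim probes gave 1484, 3 and 7. A slide block gave 666, 2 and 3. The first slide alone gave 153, 0 and 1 (Inhbb). Array weights gave 6924 genes and 16 risen members. Leaving out each array gave 1239 to 5164 genes, 3 to 15 risen and 7 to 11 fallen members, and a member median of -0.034 to 0.059. The highest counts came without Rb intact 1, the lowest gene count without Rb deleted 2.

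The replicate block gave 1638 genes, 3 risen and 7 fallen members. Deviations of same-numbered cultures correlated at -0.034, -0.050 and 0.015, and 2 of 6 arrays correlated best with their own number. These values show no pairing by number. With so few arrays, and slides that split the Rb deleted group, they cannot exclude one.

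The sign changes all concerned genes not called. With the array median Chrd gave -0.0042, and -0.0093 with detected probes. With the background model Acvr2a gave 0.0092, Fstl1 0.039, Chrd -0.00038 and Smad5 -0.033. With probe means Smad5 gave -0.0047. With array weights Fstl3 gave 0.0034 and Smad3 -0.020. Both slide fits gave -0.0062 for Ltbp2 and 0.066 for Acvr2a. Leaving out each array gave Chrd -0.041 to 0.063, Acvr2a -0.086 to 0.0062, Smad3 -0.016 to 0.17, Ltbp1 -0.046 to 0.22 and Bmpr1a -0.034 to 0.16. The cause was not tested.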
